A study of Mus musculus with 6 samples.

Results

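Genes of the integrated stress response, which centres on the transcription factor ATF4, were followed in an adult-derived and an embryonic-derived hypothalamic line of the mouse. The 10 genes were Atf4, Atf3, Atf5, Ddit3, Trib3, Chac1, Asns, Psat1, Phgdh and Ppp1r15a. They were taken by name, with earlier results of these data known. The array's annotation names 18 probe sets for one of these genes alone, and these 18 of the 22690 probe sets in the table were their measurements. All 10 genes were among the 12393 genes tested. Both lines are labelled as expressing Npy, which encodes the feeding-stimulating neuropeptide Y, and both were immortalised by overexpressing SV40 T-antigen, which binds and disables the p53 and retinoblastoma tumour suppressors. A_212 came from adult mouse hypothalamus and N_46 from embryonic mouse hypothalamus, and neither had a treatment. Each line was grown on 3 plates in medium holding 5% fetal bovine serum until cells covered 70% of the plate, and RNA of each plate was read on 1 array. Each age of origin is represented by a single line, so the age of origin and whatever else separates these lines cannot be told apart, and p-values measure the spread between plates of a line.

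In the integrated stress response, kinases that sense amino acid shortage, misfolded protein in the endoplasmic reticulum, double-stranded RNA or haem deficiency phosphorylate the translation factor eIF2. Translation in general then falls, while ATF4 is translated better from its messenger, whose upstream open reading frames otherwise hold it back. ATF4 switches on genes of amino acid synthesis and uptake, tRNA charging and redox balance, and also genes that end the response or lead to cell death, such as Ddit3, which encodes CHOP. Arrays read RNA, so control of ATF4 at translation or by protein turnover is not seen in these data.

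ATF4 pairs with C/EBP proteins on composite elements whose core can be written TGATGNAA, and ATF and CREB proteins bind the palindrome TGACGTCA. Both motifs were searched on both strands of the RefSeq promoter windows of GRCm38.p6, which run from 250 bases before a gene's start to 50 bases after it. All 10 genes had a window, and with a second start for Atf5 and for Psat1 they had 12. The core TGATGNAA was found in 4 of the 12 windows, those of Atf3, Chac1, Asns and Trib3, and in 3.97% of all 32851 windows. The palindrome was found in 1 of the 12, that of Ppp1r15a, and in 1.79% of all windows. The stretches with a match are shown because they hold the letters that ATF4 family proteins are known to bind. They read along the gene's strand, 5′ to 3′, with the motif in capitals, in the order of position against the start.
Chac1, chr2:119351023-119351082, plus strand, motif at -193 to -186 and opposite in strand: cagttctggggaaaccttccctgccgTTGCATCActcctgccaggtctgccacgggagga
Atf3, chr1:191183410-191183469, minus strand, motif at -110 to -103 and opposite in strand: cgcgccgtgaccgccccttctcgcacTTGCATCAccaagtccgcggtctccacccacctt
Asns, chr6:7693210-7693269, minus strand, motif at -23 to -16 on the gene's strand: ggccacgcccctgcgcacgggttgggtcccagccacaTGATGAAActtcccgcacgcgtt
Ppp1r15a, chr7:45526269-45526328, minus strand, palindrome at -12 to -5: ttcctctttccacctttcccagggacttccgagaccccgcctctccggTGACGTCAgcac
Trib3, chr2:152344028-152344057, minus strand, motif at 15 to 22 past the start and opposite in strand: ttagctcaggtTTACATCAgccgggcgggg
A match is a run of letters and was not tested for binding, and the absence of a match in the windows of Atf4, Atf5, Ddit3, Psat1 and Phgdh says only that the letters are not in those windows.

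The log2 values were deposited centred, with 0 as the middle of each probe set's 6 values. They therefore give no expression level and do not show whether either line expressed a gene at all. No source used here states the log base, which was taken as 2, so each fold rests on that. Where the lines do not overlap in a probe set, 0 lies midway between the nearest plates of the lines. For a gene value that is the mean of several probe sets, this need not hold. Differences are given as N_46 minus A_212, with the limma standard error (SE, n = 3 arrays per line), and were called at a Benjamini-Hochberg adjusted p under 0.05 over all genes. In cultures read in bulk, fewer cells with a transcript and less of it per cell cannot be told apart.

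The embryonic-derived line N_46 was higher for 9 of the 10 genes, and the remaining gene, Phgdh, did not pass the test. The count of 9 compares with 20.9% of all 12393 genes called higher in N_46 and 39.2% called in either direction. Because the 10 genes were chosen with earlier results of these data known, comparisons with all genes describe them and bear no test. No member was higher in A_212, a count of 0 in limma at an adjusted and also at an unadjusted p under 0.05, against 18.3% of all genes. The N_46 plates all lay above the A_212 plates for 9 of the 10, as they did for 28.9% of all genes (51.1% were apart in either direction). The median difference was 0.51 over the 10 genes and 0.06 over all genes. A difference of at least 2-fold was found for 2 of the 10, Trib3 and Chac1, and for 5.83% of all genes (2.22% with N_46 higher). Probe set by probe set, 14 of 18 were higher in N_46 and 1 in A_212, against 19% and 17.1% of 22626 probe sets tested (36% in either direction), and 3 did not pass. Plates of the lines lay apart for 16 of the 18, with N_46 above in 15, against 48.7% of all probe sets apart and 27.2% with N_46 above. A difference of at least 2-fold was found for 3 of the 18, all higher in N_46, against 5.84% of all probe sets and 2.25% with N_46 higher.

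**Figure D1:**
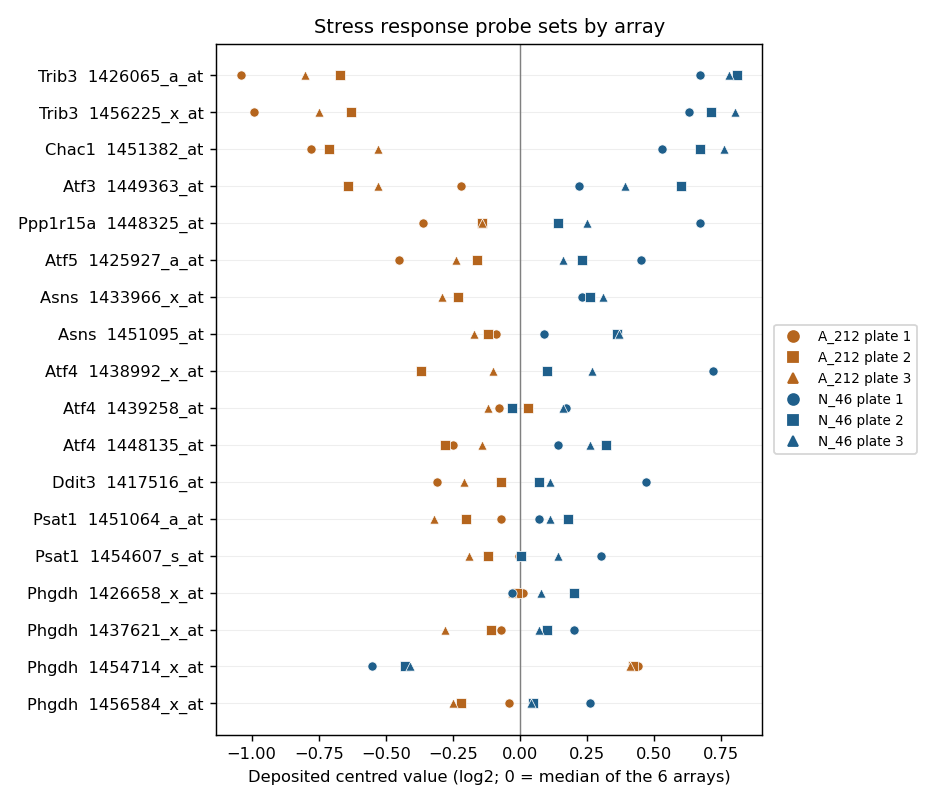
Deposited centred log2 values of the 18 probe sets on each of the 6 arrays, with A_212 plates in brown and N_46 plates in blue and 1 marker shape per plate number. Plates of the lines lie apart for 16 probe sets, with N_46 to the right in 15 and to the left in 1, the Phgdh probe set 1454714_x_at.

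Atf4, the factor at the centre of the response, was modestly higher in N_46. Its values, as the mean of 3 probe sets, were -0.24, -0.21 and -0.12 on the A_212 plates and 0.34, 0.13 and 0.23 on the N_46 plates. The lines did not overlap, and the lowest N_46 plate lay 0.26 above the highest A_212 plate. The difference was 0.42 ± 0.08 (SE, n = 3 per line; 95% interval 0.25 to 0.60), a 1.34-fold difference with a limma adjusted p of 0.00147. The probe sets differed in size. Probe set 1438992_x_at differed by 0.64 ± 0.15 (limma adjusted p = 0.00581) and 1448135_at by 0.47 ± 0.08 (0.00136), whereas 1439258_at, with a difference of 0.16 ± 0.09 and overlapping lines, did not pass (0.181). The N_46 values of 1438992_x_at were 0.72, 0.10 and 0.27, so that its plate 1 stood above the other plates of that line. Those of 1448135_at were 0.14, 0.32 and 0.26, with plate 1 the lowest, and those of 1439258_at were 0.17, -0.03 and 0.16.

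Atf3 had the largest difference among the 4 transcription factor genes. It encodes a stress-induced factor of the same bZIP class that represses many of its targets, and ATF4 is among its activators. Its A_212 plates read -0.22, -0.64 and -0.53 and its N_46 plates 0.22, 0.60 and 0.39. The lines were apart by 0.45 although the plates of each line were spread widely, with SDs of 0.22 and 0.19 that exceed those of 92.9% and 92.3% of genes. The difference was 0.87 ± 0.12 (95% interval 0.60 to 1.14, 1.83-fold, limma adjusted p = 0.000238).

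Atf5 encodes the closest relative of ATF4, a factor that is likewise controlled at translation and that acts in the mitochondrial stress response and in neural progenitors. It read -0.45, -0.16 and -0.24 in A_212 and 0.45, 0.23 and 0.16 in N_46. No plate of one line reached the other, and the difference was 0.56 ± 0.10 (1.48-fold, limma adjusted p = 0.0012). Ddit3, whose product CHOP is a partner of ATF4 and promotes cell death in prolonged stress, read -0.31, -0.07 and -0.21 in A_212 and 0.47, 0.07 and 0.11 in N_46. Plate 1 of N_46 was high and the other N_46 plates lay just above A_212 plate 2, with 0.15 between the nearest plates. The difference of Ddit3 was 0.41 ± 0.11 (1.33-fold, limma adjusted p = 0.0128). In the fit of single probe sets, where its 1 probe set had an adjusted p of 0.0166, the call ended without A_212 replicate 1 (0.36, adjusted p = 0.057) and without A_212 replicate 3 (0.41, adjusted p = 0.0513).

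Trib3 and Chac1, both induced by ATF4 and CHOP together, were the members with the largest differences. Trib3 encodes a pseudokinase that binds ATF4 and restrains its activity and also binds AKT. Its values were -1.01, -0.65 and -0.78 in A_212 and 0.65, 0.76 and 0.79 in N_46, so the nearest plates were 1.31 apart. The difference was 1.55 ± 0.10 (95% interval 1.34 to 1.76), a fold of 2.93 with an interval from 2.52 to 3.39 (limma adjusted p = 5.75e-07). It exceeded the absolute difference of 97.1% of genes, and the 2 probe sets gave like values of 1.59 and 1.5. The A_212 plates varied more (SD 0.18) than the N_46 plates (SD 0.07).

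Chac1 encodes the enzyme that degrades glutathione and is among the genes most strongly induced by amino acid shortage. It read -0.78, -0.71 and -0.53 in A_212 and 0.53, 0.67 and 0.76 in N_46. All N_46 plates were far above all A_212 plates, with 1.06 between the nearest. The difference was 1.33 ± 0.09 (95% interval 1.13 to 1.53), a 2.51-fold difference (limma adjusted p = 1.16e-06) that exceeded the absolute difference of 96.3% of genes. When limma's treat asked for more than a 1.5-fold difference, Trib3 and Chac1 were the 2 members that passed, against 6.71% of all genes, and the adjusted p of Atf3 was 0.257.

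Ppp1r15a encodes GADD34, the subunit that directs protein phosphatase 1 to eIF2 and so ends the response. Its values were -0.36, -0.14 and -0.14 in A_212 and 0.67, 0.14 and 0.25 in N_46. Plate 1 of N_46 stood above the rest, and the SD of that line, 0.28, exceeded the SD of 98.1% of genes. The difference was 0.57 ± 0.13 (95% interval 0.28 to 0.85, 1.48-fold, limma adjusted p = 0.00525), and it was 0.41 without that plate (0.0077).

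The 3 enzymes of amino acid synthesis were not alike, and the difference of Asns was slightly larger than those of Atf4 and Ddit3. Asns, the asparagine synthetase whose promoter is the classic amino acid response element, read -0.16, -0.17 and -0.23 in A_212 and 0.16, 0.31 and 0.34 in N_46. The lines were apart by 0.32 and the A_212 plates were close together (SD 0.04). Its difference was 0.46 ± 0.07 (1.37-fold, limma adjusted p = 0.000654), and both probe sets passed, at 0.51 and 0.40. Psat1, the aminotransferase of the serine pathway, read -0.04, -0.16 and -0.25 in A_212 and 0.19, 0.09 and 0.12 in N_46. The gap between the lines was 0.13 and the difference 0.28 ± 0.08 (1.22-fold, limma adjusted p = 0.0145). Of its 2 probe sets, 1451064_a_at passed at 0.32 (adjusted p = 0.0152, or 0.0642 without N_46 replicate 2) and 1454607_s_at, at 0.25, did not (0.0658, or 0.0397 without that replicate).

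**Figure D2:**
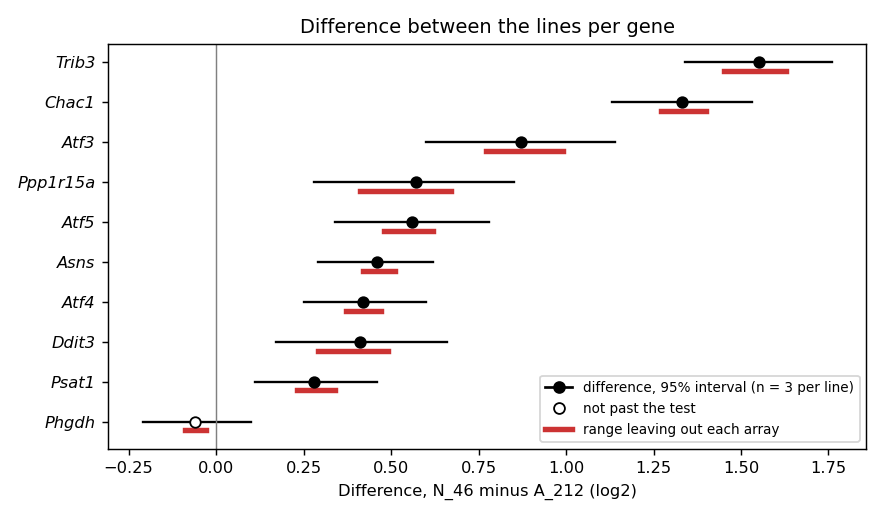
Difference between the lines for the 10 genes on the log2 scale, N_46 minus A_212, as points with 95% limma intervals (3 arrays per line), and in red the range of the difference when each array was left out in turn. The intervals of 9 genes lie above 0, from Psat1 (0.11 to 0.46) up to Trib3 (1.34 to 1.76), and that of Phgdh, the open point, spans 0.

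Phgdh, the dehydrogenase that commits glycolytic carbon to serine, had probe sets that went opposite ways. As a gene it read 0.09, 0.02 and -0.04 in A_212 and -0.03, -0.02 and -0.06 in N_46, with overlapping lines and a difference of -0.06 ± 0.07 (95% interval -0.21 to 0.10, limma adjusted p = 0.55). That mean joined unlike values. Probe sets 1437621_x_at (0.28 ± 0.09, adjusted p = 0.0294) and 1456584_x_at (0.29 ± 0.09, 0.0357) were higher in N_46, and 1426658_x_at differed by 0.09 ± 0.08 and did not pass (0.422). Probe set 1454714_x_at was higher in A_212, by -0.88 ± 0.08 (1.84-fold, adjusted p = 8.57e-06), with 0.44, 0.42 and 0.41 on the A_212 plates and -0.55, -0.43 and -0.41 on the N_46 plates.

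All 4 are of the x type, whose probes can also match other sequences. Probe sets 1438992_x_at of Atf4, 1433966_x_at of Asns and 1456225_x_at of Trib3 are of that type too. The annotation gives 2 further probe sets to Phgdh together with another gene, and these were not counted as members. One of them, shared with Gm6756, differed by -0.71 ± 0.08 (limma adjusted p = 4.59e-05), and the one shared with Gm8096 by 0.28 ± 0.10 and did not pass (0.0595). Without 1454714_x_at, a choice made after its values were seen, the mean of the other 3 probe sets differed by 0.22 (adjusted p = 0.0353) in favour of N_46. The calls of 1437621_x_at and 1456584_x_at were near the threshold and each ended without A_212 replicate 2, A_212 replicate 3 or any N_46 replicate, with adjusted p-values between 0.051 and 0.109.

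**Figure D3:**
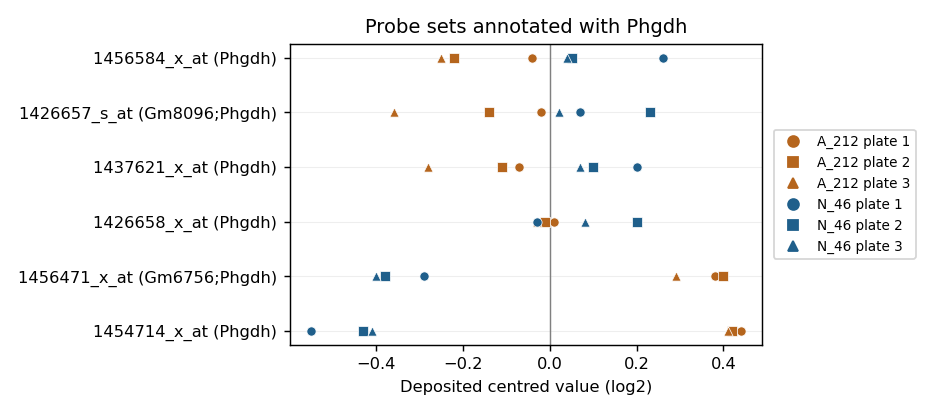
Deposited centred log2 values on the 6 arrays of the 6 probe sets annotated with Phgdh, alone or with another gene, with A_212 plates in brown and N_46 plates in blue. The lower pair of probe sets, 1454714_x_at and the one shared with Gm6756, has every A_212 plate at 0.29 or above and every N_46 plate at -0.29 or below, whereas the other 4 have A_212 plates between -0.36 and 0.01 and N_46 plates between -0.03 and 0.26.

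The order of the differences was Trib3, Chac1, Atf3, Ppp1r15a, Atf5, Asns, Atf4, Ddit3, Psat1 and Phgdh. The 95% intervals of neighbours in this order overlapped except between Psat1 and Phgdh, and the differences between neighbours were not tested. When each array was left out in turn, the 9 called genes stayed past the threshold, with the highest adjusted p at 0.0476 for Ddit3 and 0.0457 for Psat1. Differences then ranged from 1.45 to 1.63 for Trib3, from 1.27 to 1.40 for Chac1 and from 0.37 to 0.47 for Atf4.

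Plates deviated from the mean of their line in different directions for different members. Plate 1 of N_46 lay above its line mean for Ppp1r15a (0.32), Ddit3 (0.25), Atf5 (0.17) and Atf4 (0.11), and below it for Atf3 (-0.18), Chac1 (-0.12), Asns (-0.11) and Trib3 (-0.08). In A_212, plate 1 was below its line mean for Trib3 (-0.20), Atf5 (-0.16), Ppp1r15a (-0.15), Ddit3 (-0.11) and Chac1 (-0.11), and above it for Atf3 (0.24) and Psat1 (0.11). The median over the 10 members was 0.03 for plate 1 of N_46 and -0.08 for plate 1 of A_212, against -0.02 and -0.0085 over all genes. The typical gene had an SD between plates of 0.099 in A_212 and 0.078 in N_46.

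**Figure D4:**
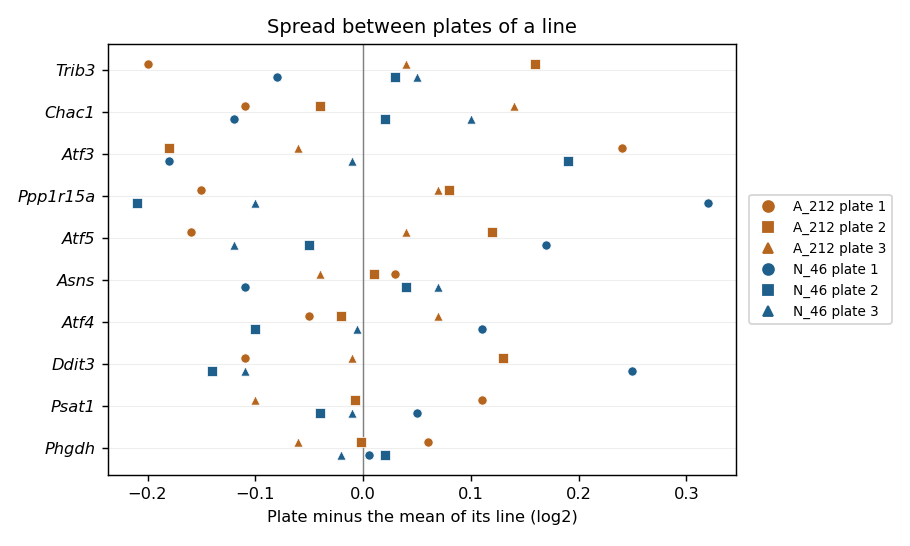
Value of each plate minus the mean of its line for the 10 genes, on the log2 scale, with A_212 plates in brown, N_46 plates in blue and 1 marker shape per plate number. Plate 1 of N_46 (blue circles) lies farthest right for Ppp1r15a at 0.32 and Ddit3 at 0.25 and farthest left in its line for Atf3, Chac1, Asns and Trib3.

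Over the 6 arrays, the genes most like Atf4 by Pearson's r were Nucks1 (0.996), Peli2 (0.995) and Akirin1 (0.994), and those most like Ddit3 were Plekhg5 (0.992), 4921524J17Rik (0.988) and Bhlhe40 (0.987). Among the members, Ppp1r15a was the most like either, with r of 0.954 for Atf4 and 0.987 for Ddit3. These values describe 6 arrays that share the step between the lines, and they bear no test. Plate 1 of N_46 was the highest of its line for Atf4 and Ddit3. For Atf4 this held for the mean of its probe sets, whereas in probe set 1448135_at plate 1 was the lowest of its line. The genes picked for likeness to Atf4 and Ddit3 share the high plate 1 through the way they were picked. On the N_46 plates, for example, Nucks1 read 0.19, 0.06 and 0.11 and Bhlhe40 0.56, 0.20 and 0.14.

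Upstream of Atf4, the sensors and translation factors went both ways. For eIF2, its kinases, its exchange factor and other regulators of these kinases and of translation, 16 genes were measured. Of these, 5 were higher in N_46 (against 20.9% of all genes), 5 in A_212 (against 18.3%) and 6 did not pass. Their median difference was 0.15, against 0.06 over all genes. The largest difference was that of Impact, whose product inhibits activation of the amino acid sensing kinase GCN2. It read 0.74, 0.88 and 0.85 in A_212 and -0.74, -1.35 and -1.36 in N_46. The lines lay far apart, and the difference was -1.98 ± 0.15, 3.94-fold in favour of A_212 (limma adjusted p = 2.08e-06).

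Eif2ak2, the interferon-induced kinase PKR (-0.65), and Nck1, an adaptor that can bring a phosphatase to eIF2 (-0.53), were also higher in A_212. Higher in N_46 were Eif4ebp1, the cap-binding inhibitor that is itself an ATF4 target (0.46), Eif5, a translation initiation factor (0.44), and Ppp1r15b, the constitutive counterpart of Ppp1r15a (0.36). The other kinases, named here for their role after their values were seen, did not pass. Eif2ak1, the haem-regulated kinase, differed by 0.09, Eif2ak3, the endoplasmic reticulum kinase PERK, by -0.10 and Eif2ak4, which encodes GCN2, by 0.14 (limma adjusted p = 0.382, 0.323 and 0.239).

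Among 26 bZIP factors that pair with ATF4 or resemble it, 11 were higher in N_46, 5 in A_212 and 10 did not pass. All genes had 20.9% higher in N_46 and 18.3% in A_212. The median was 0.11 for these factors and 0.06 over all genes. The AP-1 gene Fosl1 (1.54), the C/EBP gene Cebpd (0.94, with probe sets at 0.36 and 1.51) and Jun (0.62) were higher in N_46, and Maf (-0.76), Atf2 (-0.38) and Fos (-2.44) in A_212. The Fos values of A_212 were 0.14, 3.37 and 2.98, so that plate 1 lay far below the other plates of its line and near the N_46 plates at -0.14, -0.42 and -0.28. The C/EBP partners Cebpg, at 0.54 (limma adjusted p = 0.000395), and Cebpb, at 0.16 (0.281), were named for their role after their values were seen. The count of 5 higher in A_212 was 2 without A_212 replicate 2 and 3 without A_212 replicate 3 or N_46 replicate 3.

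Other stress genes often listed as targets of ATF4 or CHOP went both ways. Of 39 measured, 20 were higher in N_46 (against 20.9% of all genes), 8 in A_212 (against 18.3%) and 11 did not pass. Their median was 0.22, against 0.06 over all genes. The very-low-density lipoprotein receptor gene Vldlr had the largest difference of the list. Its values were -1.48, -0.98 and -0.85 in A_212 and 1.99, 0.95 and 0.92 in N_46. It differed by 2.39 ± 0.26 (limma adjusted p = 3.7e-05), with 4 probe sets between 1.21 and 3.75. Nupr1, a stress-induced chromatin regulator, differed by 1.29 ± 0.08 (4.54e-07) and the glycine transporter gene Slc6a9 by 0.93 ± 0.07 (2.55e-06).

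Large differences the other way were those of Cdkn1a, the cell cycle inhibitor p21 (-1.47, with probe sets at -2.30 and -0.65), Bcl2l11, the death-promoting protein BIM (-1.10), and Trib2, a relative of Trib3 (-1.0). Cdkn1a and Bcl2l11 also have activators other than ATF4 and CHOP, p53 for the former and FOXO factors for the latter. For no gene of this list, in either direction, was the part of any activator tested. The paralogs Trib3, at 1.55, and Trib2 differed in opposite directions between the lines. Amino acid transporter genes of the list, named for their role after their values were seen, were mostly higher in N_46. Besides Slc6a9, these were Slc7a11, the cystine importer, at 0.81 (limma adjusted p = 1.91e-05), Slc7a5 (0.64) and Slc3a2 (0.54). Slc7a1 (0.42), Slc7a3 (0.35) and Slc1a4 (0.29) were also higher in N_46. Slc38a2, at 0.13, did not pass (0.271). Only Slc1a5, the glutamine transporter, at -0.97 (1.02e-05), was higher in A_212.

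In serine, glycine, one-carbon and amino acid synthesis, 9 of 19 measured genes were higher in N_46, 3 in A_212 and 7 did not pass. All genes had 20.9% higher in N_46 and 18.3% in A_212. The median was 0.14 for this list and 0.06 over all genes. Gldc, the glycine decarboxylase, differed by 1.35 ± 0.07 (2.55-fold, limma adjusted p = 1.27e-07), with A_212 plates from -0.75 to -0.63 and N_46 plates from 0.63 to 0.68. The mitochondrial folate enzymes Mthfd2 (1.03 ± 0.09, adjusted p = 7.01e-06) and Shmt2 (0.96 ± 0.09, 1.05e-05) were 2.05-fold and 1.94-fold higher in N_46. Psph, which completes serine synthesis after Phgdh and Psat1 and was named for that role after its values were seen, differed by 0.78 ± 0.08 (2.75e-05), against 0.28 for Psat1. Glul, the glutamine synthetase (-0.57), Bcat2, the mitochondrial branched-chain aminotransferase (-0.55), and Asl, the argininosuccinate lyase (-0.55), were higher in A_212.

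Of 22 measured genes of tRNA charging, 11 were higher in N_46 (against 20.9% of all genes), 1 in A_212 (against 18.3%) and 10 did not pass. Their median was 0.24, against 0.06 over all genes. Eef1e1, a subunit of the multi-synthetase complex (0.81), Xpot, the tRNA exporter (0.79), and Iars, the isoleucyl-tRNA synthetase (0.57), led those of the list higher in N_46. The exception was Qars, the glutaminyl-tRNA synthetase, at -0.24 with 4 probe sets from -0.47 to 0.07, a call that ended without N_46 replicate 2, when 0 genes of the list were higher in A_212 (1 at an unadjusted p under 0.05).

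Chaperones and sensors of the endoplasmic reticulum, which the ATF6 and IRE1 branches of the unfolded protein response control, were measured for all 31 genes of the list. Of these, 2 were higher in N_46, 8 in A_212 and 21 did not pass, with a median of -0.09, against 20.9% of all genes higher in N_46, 18.3% higher in A_212 and a median of 0.06. Sil1, an exchange factor of the main chaperone (-0.75), P4hb, a protein disulfide isomerase (-0.44), and Dnajc3, a co-chaperone that inhibits PERK and PKR (-0.42), were higher in A_212. Herpud1, an ATF4-responsive factor of protein disposal, was higher in N_46 (0.46). Hspa5, the chaperone BiP, differed by -0.09 ± 0.09 (limma adjusted p = 0.462) and Xbp1, the target of IRE1, by -0.15 ± 0.10 (0.258), both named for their role after their values were seen. The count higher in A_212 was 5 without A_212 replicate 2, and the count higher in N_46 was 1 without A_212 replicate 3, N_46 replicate 2 or N_46 replicate 3.

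**Figure D5:**
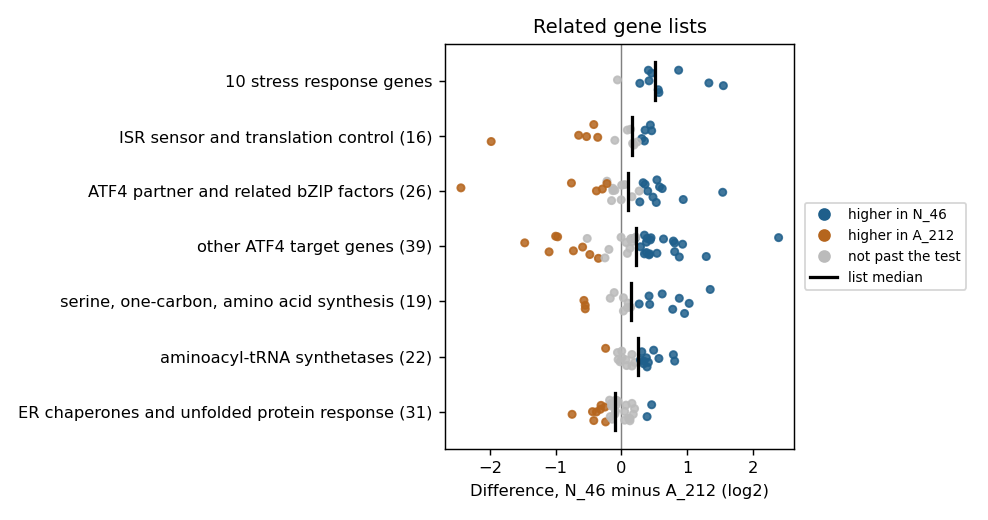
Difference between the lines, N_46 minus A_212 on the log2 scale, for the 10 stress response genes and 6 related lists, with 1 point per measured gene, coloured by its limma call, and the list median as a black bar. Medians lie at 0.51 for the 10 genes, between 0.11 and 0.24 for 5 of the lists and at -0.09 for endoplasmic reticulum chaperones.

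Of the lists of cell type markers, those of mesenchyme and smooth muscle moved with the lines on the same arrays. The medians of the neuronal and astrocyte lists stayed near 0. The counts of all these lists stand beside 20.9% of all genes higher in N_46 and 18.3% higher in A_212. Among markers of fibroblasts and other mesenchyme, A_212 was higher for 13 of 22 and N_46 for 3, led by Mmp2 (-5.26) and Postn (-5.14), and their median value was 0.15 to 0.29 on A_212 plates and -0.36 to -0.16 on N_46 plates. Of 12 smooth muscle markers 8 were higher in A_212 and 1 in N_46, led by Actg2 (-4.17), with array medians of 0.20 to 0.29 and -0.45 to -0.16. Neuronal markers (2 of 21 higher in N_46 and 4 in A_212, led by Stmn2 at -3.09) and astrocyte markers (2 and 5 of 12, led by Slc1a3 at 2.47 and by Apoe at -1.17) had array medians between -0.08 and 0.05. Without N_46 replicate 2, 0 neuronal markers were called higher in N_46 (2 at an unadjusted p under 0.05), and 1 was without A_212 replicate 2 or N_46 replicate 3. Whether any marker is at 0 in a line cannot be read from centred values, and the part of these differences in those of the stress genes was not tested.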

How the data were processed

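RNA of 6 cultures was measured, 3 plates per line, from 5 µg of RNA each. The authors' deposited log2 values were made with RMA, per the submitters' processing notes (no version is named there). The median of each of the 22690 probe sets over the 6 arrays is 0 within 1e-06, and no source describes that centring. Genes were named from the platform annotation: 20380 probe sets had 1 gene, 691 several, 1555 none and 64 were controls. Through gene identifiers 20351 matched RefSeq (GRCm38.p6), and 0 symbols changed. A gene's value was the mean of its probe sets named for it alone.

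Genes (12393) and single probe sets (22626) were each fitted with limma (lmFit, eBayes, two-sided, Benjamini-Hochberg over the whole table). From each related list the text names up to 3 called genes per direction with the largest difference and no overlap of the lines, and all 10 members. For Atf4 and Ddit3 it names the 3 genes with the highest Pearson r. The members and lists were chosen with earlier results of these data known. Some lists share genes, such as Xpot, Cars, Gpt2, Cebpb, Dnajc3 and Atf6, and these are counted in each list that holds them. Alternatives were scaling by the median or 75th percentile, array weights, robust eBayes, a replicate block, plain probe sets, the probe set with the largest spread, treat, and each array left out. Tested on simulated data with 12393 genes and 3 arrays per line, limma found 81% of genes given a change of 0.5 and 99% of genes given 1. In that simulation 200 genes were changed, and 7 of 187 calls were false. Far more genes, 4853, were called in the real data, so these shares do not give the power here. With 3 arrays per line, precision is limited by their number. The fits used limma 3.58.1 under R 4.3.3, and tables and plots Python 3.11.15 with pandas 2.3.3, numpy 2.4.6 and matplotlib 3.10.9.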

Additional observations from a re-analysis of the deposited data

How the results depend on the processing

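The 9 member calls kept their direction and their side of the threshold under scaling by the median or 75th percentile, array weights, robust eBayes, the replicate block and each array left out. With plain probe sets 6 of 6 members that have one were called, and Atf5, Trib3, Psat1 and Phgdh have none. Atf4 differed by 0.31 with plain probe sets and by 0.64 with the probe set of largest spread. The replicate block called 9 members and 4834 genes against 4853. The paired numbers are a number only: deviations of same-numbered plates correlated at -0.027, -0.012 and 0.093, and plate 1 of A_212 correlated best with plate 2 of N_46 (0.116).

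Against a 1.5-fold bound (treat), 832 genes and 2 members were called. Of the genes, Atf3 (0.87), Ppp1r15a (0.57), Atf5 (0.56), Asns (0.46), Atf4 (0.42), Ddit3 (0.41) and Psat1 (0.28) did not pass, because the bound asks for more than a difference from 0. Nor did the probe sets of Atf3 (0.87), Ppp1r15a (0.57), Atf5 (0.56), Ddit3 (0.41), Atf4 (0.64 and 0.47), Asns (0.51 and 0.40), Psat1 (0.32) and Phgdh (0.28 and 0.29) that had passed. Counts in limma's treat, higher in N_46 and in A_212, were 0 and 1 for stress sensor and translation control genes, 2 and 0 for bZIP factors, 3 and 4 for other targets, 3 and 0 for amino acid synthesis, 0 and 0 for tRNA charging and 0 and 0 for endoplasmic reticulum genes. At an unadjusted p under 0.05 in treat these were 0 and 1, 2 and 2, 7 and 4, 5 and 0, 2 and 0, and 0 and 1. Of markers, 0 neuronal, 0 mesenchymal and 0 smooth muscle genes were higher in N_46 (0, 0 and 1 unadjusted), and 8 mesenchymal, 5 smooth muscle and 0 astrocyte genes in A_212 (8, 5 and 3 unadjusted).

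With the probe set of largest spread, Phgdh differed by -0.88 and became the 1 member higher in A_212, and 3 tRNA charging genes were higher in A_212. Without probe set 1454714_x_at, an alternative added after the data were seen, Phgdh reversed to 0.22 and 10 members were higher in N_46. With plain probe sets alone, 3 bZIP, 1 synthesis, 2 neuronal and 2 astrocyte genes were higher in A_212 and 0 smooth muscle genes in N_46 (1 unadjusted). That setting tests fewer genes. With array weights 8 sensor and translation control genes and 4 endoplasmic reticulum genes were higher in N_46. With equal medians 1 endoplasmic reticulum gene and 1 neuronal gene were. The Phgdh probe set 1456584_x_at lost its call with array weights (0.21), equal 75th percentiles (0.27) and equal medians (0.26), and 1437621_x_at with equal medians (0.25). For these settings the cause was not tested.

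Leaving out each array gave 2 to 7 bZIP genes, 0 to 1 tRNA charging genes and 5 to 7 endoplasmic reticulum genes higher in A_212, and 1 to 2 endoplasmic reticulum genes and 0 to 3 neuronal genes higher in N_46. Probe set differences then ranged from 0.29 to 0.49 for Ddit3, from 0.21 to 0.32 (1437621_x_at) and 0.22 to 0.35 (1456584_x_at) for Phgdh, and from 0.26 to 0.38 (1451064_a_at) and 0.17 to 0.32 (1454607_s_at) for Psat1. Centred values give no signal over background, so dim probe sets could not be set apart.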
